A study of Mus musculus with 6 samples.

Results

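The genes described here are 10 integrin subunits of leukocytes and platelets, taken by gene symbol: Itgb2, Itgal, Itgam, Itgax, Itgb2l, Itga4, Itgb1, Itgb7, Itga6 and Itga2b. Each symbol had 1 row among the 30803 rows of the expression tables, and all 10 were among the 12295 genes tested, whose FPKM averaged 1 or more over the 6 libraries. FPKM is a fragment count divided by transcript length and library size, so levels of different genes can be compared per length. The lowest value of any of the 10 genes in any library was 3.76 FPKM, so none of them passed that minimum through a single group. The tables came from wild-type mice at 5 months. Marrow cells with the label hematopoietic stem cell, the cell that renews the blood, had been sorted by surface MHC class II into MHCII-hi cells (3 libraries) and MHCII-lo cells (3 libraries), without treatment. The sources used here do not give the mouse strain, the surface markers of the gate, or whether a library stands for 1 animal or a pool. Each p-value therefore weighs a difference against the variation among these libraries, and that variation could be technical.

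Integrins are adhesion receptors built from 1 alpha and 1 beta chain. They stay folded on resting cells and open when talin and kindlin bind the tail of the beta chain, a step driven by the small GTPase RAP1. The beta2 chain (Itgb2, CD18) occurs on leukocytes. Its partners among the 10 genes are alphaL (LFA-1), alphaM (Mac-1) and alphaX. The alpha4 chain pairs with beta1 (VLA-4), which holds stem and progenitor cells to VCAM-1 in the marrow, or with beta7, which binds MAdCAM-1 in gut vessels. The alpha6 chain pairs with beta1 to bind laminin. AlphaIIb (Itga2b, CD41) pairs with beta3 to bind fibrinogen on platelets and megakaryocytes, and marks a share of stem cells.

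The FPKM of a library summed to between 333347 and 333530 in MHCII-hi and between 305934 and 306945 in MHCII-lo, and read depth is unknown. Libraries of a group were nearly identical, with a median coefficient of variation at 10 to 100 FPKM of 3.28% in MHCII-hi and 2.63% in MHCII-lo. Changes of a few percent therefore passed the test, and 67.8% of all tested genes were called in a direction. The stem cell label was checked against 12 stem cell markers. Of these, 6 had a mean under 1 FPKM, among them Hoxb5, averaging 0.00333 FPKM in MHCII-hi and at 0 in every MHCII-lo library. Among the other 6, all tested, 3 rose (Ly6a, Hlf and Meis1), 0 fell and 3 did not pass (Kit, Cd34 and Mllt3). Ly6a, the stem cell antigen Sca-1, rose to 14.6 ± 0.517 FPKM in MHCII-hi, against 4.78 ± 0.214 FPKM in MHCII-lo (limma adjusted p = 5.54e-07). Kit, the stem cell factor receptor, averaged 10.85 ± 0.208 FPKM in MHCII-hi and 10.9 ± 0.0306 FPKM in MHCII-lo (SD, n = 3 each; limma adjusted p = 0.880). Cd34, a surface marker of progenitors, averaged 15.7 ± 0.414 FPKM in MHCII-hi and 14.8 ± 0.281 FPKM in MHCII-lo (limma adjusted p = 0.0631). The 12 markers together made up 0.0145% to 0.0151% of the FPKM in MHCII-hi and 0.0115% to 0.0116% in MHCII-lo. Neutrophil markers made up 6.28% to 6.36% in MHCII-hi and 4.51% to 4.53% in MHCII-lo.

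All 5 beta2 family genes among the 10 were higher in MHCII-hi, by 1.27 to 2.31 times, and so were the platelet chain Itga2b and the alpha4 chain Itga4. The beta1 and beta7 chains and the alpha6 chain were lower. In all, 7 of the 10 genes were called higher and 3 lower in limma at a Benjamini-Hochberg adjusted p under 0.05, where 27.2% of all tested genes were called higher and 40.5% lower. In every one of the 10 genes the 3 MHCII-hi libraries did not overlap with the 3 MHCII-lo libraries, which also held for 72.8% of all tested genes. MHCII-hi was on the higher side without overlap in 29.6% of all tested genes and on the lower side in 43.3%. The median log2 change was 0.48 over the 10 integrins and -0.08 over all tested genes. Only Itgb2l changed by at least 1 on the log2 scale, as did 3.69% of all tested genes upward, and 0 of the 10 fell by that much, as did 1.46% of all tested genes. The split of calls over all genes depends on scaling. Of the genes called, 40.2% were higher as deposited, 50.6% after median-of-ratios scaling and 28.9% after scaling to equal totals, where the median of all tested genes was -0.18. The directions of the 10 integrins were the same under each of these.

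**Figure D1:**
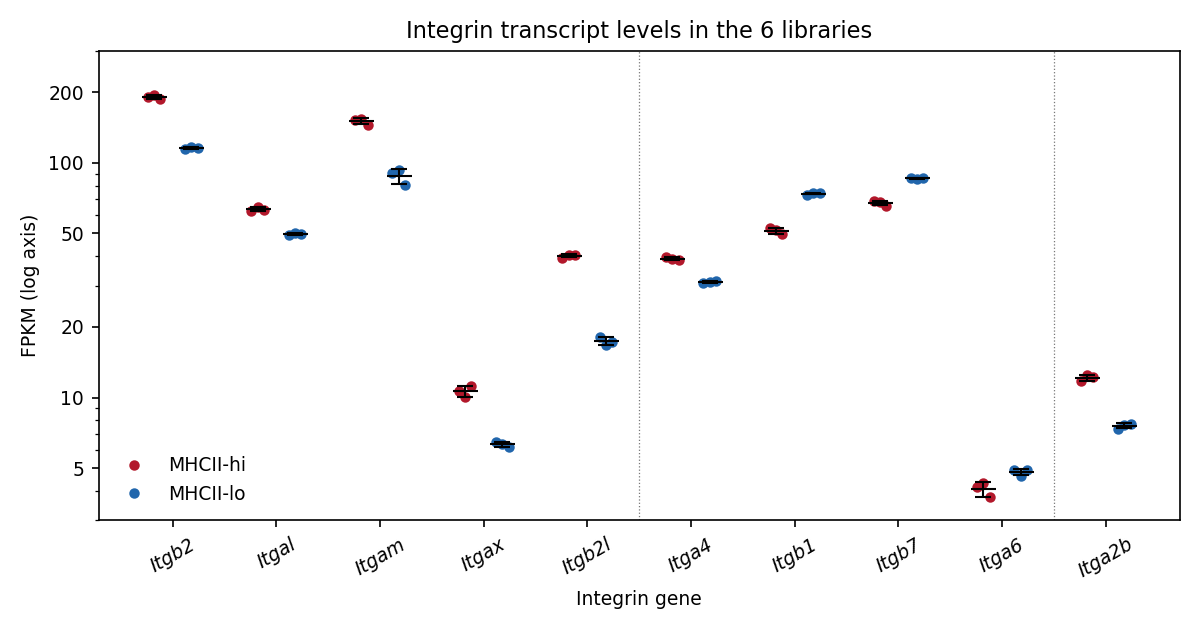
FPKM of each integrin gene in the 6 libraries on a log axis, with 1 point per library, the mean as a bar and the SD as whiskers. MHCII-hi (red) stands left of MHCII-lo (blue), and dotted lines part the beta2 family, the alpha4, beta1, beta7 and alpha6 chains, and Itga2b. The 5 beta2 family genes, Itga4 and Itga2b lie higher in MHCII-hi, while Itgb1, Itgb7 and Itga6 lie lower.

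Promoter sequences are shown for the members that changed most upward (Itgb2l) and downward (Itgb1). They are also shown for Itgam and Itga2b, both higher in MHCII-hi. RefSeq windows on GRCm38.p6 were matched for 7 of the 10 genes by symbol. Each runs from 250 bases before to 50 bases after the annotated start, 5′ to 3′ on the gene's strand. Capitals mark GAGGAA or its reverse complement TTCCTC, a core sequence bound by the myeloid and lymphoid factor PU.1. For Itga2b the RefSeq start lies inside the GENCODE gene model, whose upstream end is at 102470122. Most of the Itga2b window, with both of its marked matches, therefore lies within that model.
Itgb2l (chr16:96443565-96443864, minus strand): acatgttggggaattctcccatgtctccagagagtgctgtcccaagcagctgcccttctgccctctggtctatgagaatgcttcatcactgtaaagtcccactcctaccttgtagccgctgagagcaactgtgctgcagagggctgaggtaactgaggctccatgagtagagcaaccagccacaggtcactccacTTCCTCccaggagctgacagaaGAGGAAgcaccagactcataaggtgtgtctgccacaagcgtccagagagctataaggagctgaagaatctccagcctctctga
Itgam (chr7:128062390-128062689, plus strand): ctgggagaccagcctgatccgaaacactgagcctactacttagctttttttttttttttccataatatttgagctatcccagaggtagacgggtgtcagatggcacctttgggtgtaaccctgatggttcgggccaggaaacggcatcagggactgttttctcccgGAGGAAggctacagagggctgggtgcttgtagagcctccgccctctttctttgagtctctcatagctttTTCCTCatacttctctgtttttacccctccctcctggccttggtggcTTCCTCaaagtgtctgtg
Itga2b (chr11:102469834-102470133, minus strand): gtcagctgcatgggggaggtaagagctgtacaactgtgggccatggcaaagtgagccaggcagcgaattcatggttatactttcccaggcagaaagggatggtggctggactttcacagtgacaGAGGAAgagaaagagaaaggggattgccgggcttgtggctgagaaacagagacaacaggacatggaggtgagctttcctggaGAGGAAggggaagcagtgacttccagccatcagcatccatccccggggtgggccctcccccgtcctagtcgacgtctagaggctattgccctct
Itgb1 (chr8:128685404-128685703, plus strand): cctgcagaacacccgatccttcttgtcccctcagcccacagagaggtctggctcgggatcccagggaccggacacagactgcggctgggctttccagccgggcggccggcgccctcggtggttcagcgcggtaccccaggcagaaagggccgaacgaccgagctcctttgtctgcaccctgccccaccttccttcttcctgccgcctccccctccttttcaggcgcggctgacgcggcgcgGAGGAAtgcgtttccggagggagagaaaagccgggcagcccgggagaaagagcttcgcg
The 6 letters occurred 3 times in the Itgam window, 2 times each in the Itgb2l and Itga2b windows, and 1 time each in the Itgb1 and Itgb7 windows. They occurred in neither the Itgax nor the Itga4 window, so 5 of 7 windows held them, against 28.3% of all 32851 windows of that length. The Itgb1 window held 27 CG dinucleotides, against 6 each for Itgam and Itga2b and 2 for Itgb2l, where the median of all windows was 7. The SP1 box GGGCGG or its reverse complement was in the windows of Itgam, Itga4 and Itgb1, and in 35.7% of all windows. The GATA letters AGATAA, searched on both strands, were in the Itgax window and in 11.2% of all windows. The RUNX letters TGTGGT or their reverse complement ACCACA were in the windows of Itgax and Itga4, and in 16.8% of all windows. These matches describe letters and say nothing of binding.

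Itgb2 (ENSMUSG00000000290.13; GRCm38 chr10:77530252-77565708, plus strand, protein-coding) encodes the beta2 chain that every leukocyte integrin of the CD11/CD18 group needs to reach the surface. It was the most abundant of the 10 genes, at 189.8, 194 and 186 FPKM in MHCII-hi and 114, 116 and 116 FPKM in MHCII-lo. Every MHCII-hi library stood well above every MHCII-lo library. The log2 change was 0.71 ± 0.02 (SE; limma adjusted p = 3.54e-07), a ratio of means of 1.64. By level Itgb2 ranked 200 among all 30803 rows in MHCII-hi and 365 in MHCII-lo.

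The chain that changed most was Itgb2l (ENSMUSG00000000157.16; chr16:96422288-96443619, minus strand), a beta2-like gene known in the mouse as Pactolus and described on maturing neutrophils. It stood at 39.5, 40.5 and 40.6 FPKM in MHCII-hi and at 18.1, 16.8 and 17.3 FPKM in MHCII-lo. The 2 sets of libraries lay far apart, with an SD of 0.601 FPKM in MHCII-hi and 0.669 FPKM in MHCII-lo. The log2 change was 1.16 ± 0.03 (SE; limma adjusted p = 3.93e-07), a ratio of means of 2.31, and 2.94% of all tested genes had a larger log2 change. Itgb2l and Itgb2 are related in sequence, but their annotated transcripts had 0 stretches of 50 bases in common, as did every other pair of the 10 genes.

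Among the 10 genes, 3 alpha chains pair with beta2. They lie on chromosome 7 of GRCm38, all on the plus strand: Itgal at 127296260 to 127335138, Itgam at 128062640 to 128118491 and Itgax at 128129547 to 128150657. They were all higher in MHCII-hi, but not by the same factor. Itgal, the alphaL chain of LFA-1 on lymphocytes and most other leukocytes, had 62.6, 64.85 and 63.2 FPKM in MHCII-hi and 49.5, 50.5 and 49.9 FPKM in MHCII-lo. This was the smallest rise of the family, with a log2 change of 0.34 ± 0.02 (SE; limma adjusted p = 1.55e-05). Itgax, the alphaX chain (CD11c) best known from dendritic cells, had 10.7, 10.1 and 11.2 FPKM in MHCII-hi and 6.46, 6.33 and 6.17 FPKM in MHCII-lo. Its groups were clearly apart at a low level, with a log2 change of 0.67 ± 0.04 (SE; limma adjusted p = 1.90e-05).

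Itgam encodes alphaM (CD11b), the phagocyte chain that binds complement fragments and fibrinogen. It had 153, 153 and 145 FPKM in MHCII-hi and 90.3, 92.9 and 80.2 FPKM in MHCII-lo, so the groups did not overlap. The log2 change was 0.77 ± 0.06 (SE; limma adjusted p = 2.55e-05). The level of Itgam is uncertain, because the gene model Gm49368 overlaps it on the same strand. That model holds 68.5% of the stretches of 50 bases in Itgam. Gm49368 had 2.12, 3.15 and 7.20 FPKM in MHCII-hi and 3.65, 0.92 and 11.5 FPKM in MHCII-lo. Replicate 3, the lowest for Itgam in each group, was the highest for Gm49368. The sum of both was 154.8, 156.5 and 153 FPKM in MHCII-hi and 93.9, 93.8 and 91.7 FPKM in MHCII-lo, and the SD in MHCII-lo was 1.23 FPKM for the sum and 6.68 FPKM for Itgam alone. With the sum in place of Itgam, the log2 change was 0.73 ± 0.02 (SE; limma adjusted p = 2.61e-07). The other genes that overlap a member in GENCODE M21 and had a value averaged 0.21 FPKM or less over the 6 libraries.

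**Figure D2:**
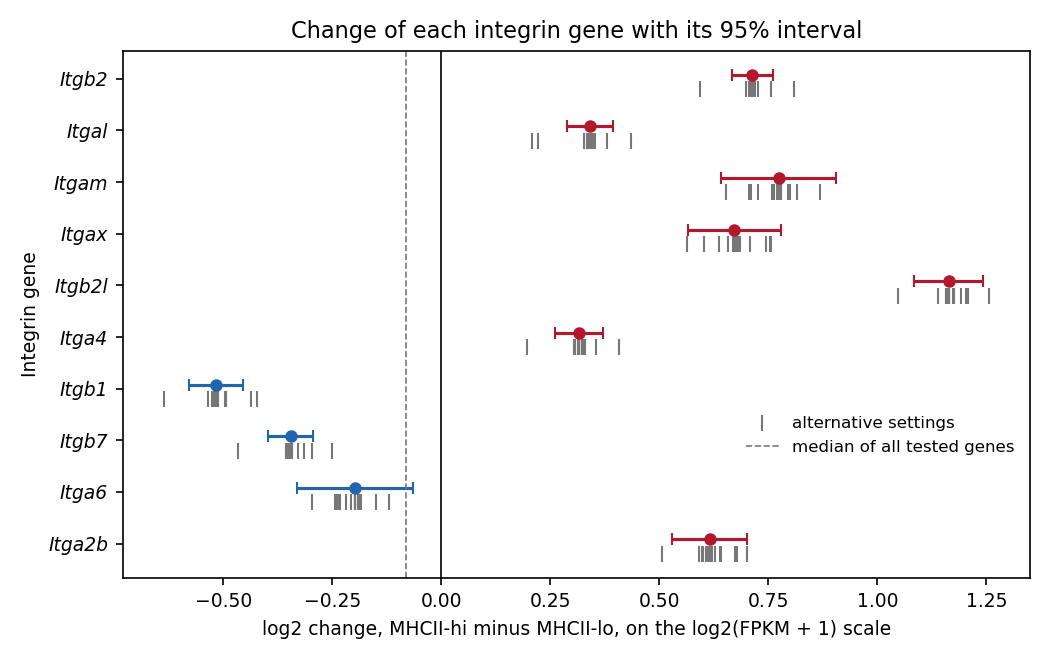
Log2 change of each integrin gene, MHCII-hi minus MHCII-lo, as a point with its 95% interval from limma. Grey ticks are the values under the alternative settings, which include other pseudocounts and scalings, and the dashed line is the median of all tested genes at -0.08. Itgb2l has the largest rise and Itgb1 the largest fall, and no tick crosses 0.

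Ratios within a library do not depend on how that library was scaled. The ratio of Itgam to Itgb2 was 0.792 ± 0.0119 in MHCII-hi and 0.760 ± 0.0586 in MHCII-lo (SD, n = 3 each), and the groups overlapped (exact two-sided permutation test, p = 0.60). With Gm49368 added to Itgam, the ratio was 0.814 ± 0.00584 in MHCII-hi and 0.807 ± 0.0152 in MHCII-lo. Those groups overlapped as well (exact permutation p = 0.60). The ratio of Itgax to Itgb2 also overlapped, at 0.0562 ± 0.00409 in MHCII-hi and 0.0547 ± 0.00168 in MHCII-lo (exact permutation p = 0.70). The ratio of Itgal to Itgb2 was lower, at 0.335 ± 0.00498 in MHCII-hi and 0.433 ± 0.00119 in MHCII-lo. The ratio of Itgb2l to Itgb2 was higher, at 0.212 ± 0.00534 in MHCII-hi and 0.151 ± 0.00733 in MHCII-lo. Both of these had non-overlapping groups and an exact permutation p of 0.10, the smallest that 3 against 3 libraries allow, and 0.157 adjusted over the 11 ratios and shares computed. Among the 3 alpha chains, taken without Gm49368, Itgam held 66.96 ± 0.750% of their summed FPKM in MHCII-hi and 60.9 ± 1.77% in MHCII-lo. Itgal held 28.3 ± 0.545% in MHCII-hi and 34.7 ± 1.65% in MHCII-lo.

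Itga4 (ENSMUSG00000027009.18; chr2:79255426-79333123, plus strand) encodes the alpha4 chain of VLA-4. It had 39.6, 38.99 and 38.4 FPKM in MHCII-hi and 30.8, 31.2 and 31.5 FPKM in MHCII-lo. The groups were apart by a modest margin, with a log2 change of 0.31 ± 0.02 (SE; limma adjusted p = 2.81e-05).

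Both beta partners of alpha4 moved the other way. Itgb1 (ENSMUSG00000025809.15; chr8:128685654-128733200, plus strand), the most widely used beta chain, had 52.8, 51.5 and 49.9 FPKM in MHCII-hi and 73.2, 74.4 and 74.4 FPKM in MHCII-lo. It showed the largest fall of the 10 genes, with a log2 change of -0.52 ± 0.03 (SE; limma adjusted p = 4.51e-06). Itgb7 (ENSMUSG00000001281.10; chr15:102215995-102231944, minus strand), the gut-homing beta chain, had 68.5, 68.1 and 65.8 FPKM in MHCII-hi and 86.3, 85.4 and 86.35 FPKM in MHCII-lo. Its log2 change was -0.35 ± 0.02 (SE; limma adjusted p = 1.40e-05). Itgb1 fell further than Itgb7, and the ratio of Itgb7 to Itgb1 was 1.31 ± 0.0137 in MHCII-hi and 1.16 ± 0.0155 in MHCII-lo (SD, n = 3 each; exact permutation p = 0.10).

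The laminin receptor chain Itga6 (ENSMUSG00000027111.15; chr2:71745616-71858416, plus strand) was the least abundant of the 10. It had 4.16, 4.34 and 3.76 FPKM in MHCII-hi and 4.93, 4.65 and 4.90 FPKM in MHCII-lo. The groups were separate by a narrow gap, and the log2 change was -0.20 ± 0.06 (SE; 95% interval -0.33 to -0.06; limma adjusted p = 0.0173). The call was lost after median-of-ratios scaling, with a log2 change of -0.12 (limma adjusted p = 0.0983). It was also lost without MHCII-lo replicate 1 (-0.18, limma adjusted p = 0.0543) and without MHCII-lo replicate 3 (-0.19, limma adjusted p = 0.0567). Over all the settings in which it was tested its log2 change lay between -0.30 and -0.12. The ratio of Itga6 to Itga4 was 0.105 ± 0.00671 in MHCII-hi and 0.155 ± 0.00545 in MHCII-lo, with groups that did not overlap (SD, n = 3 each; exact permutation p = 0.10).

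Because beta2 rose while beta1 and beta7 fell, the make-up of the beta chain transcripts differed between the fractions. Itgb2 held 61.5 ± 0.445% of the summed FPKM of Itgb1, Itgb2 and Itgb7 in MHCII-hi and 41.9 ± 0.223% in MHCII-lo (SD, n = 3 each). Itgb7 held 21.8 ± 0.154% in MHCII-hi and 31.2 ± 0.310% in MHCII-lo. Itgb1 held 16.6 ± 0.292% in MHCII-hi and 26.9 ± 0.0964% in MHCII-lo. The sum of these 3 chains was 309 ± 6.11 FPKM in MHCII-hi and 275.5 ± 1.54 FPKM in MHCII-lo, so the totals differed less than the shares.

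**Figure D3:**
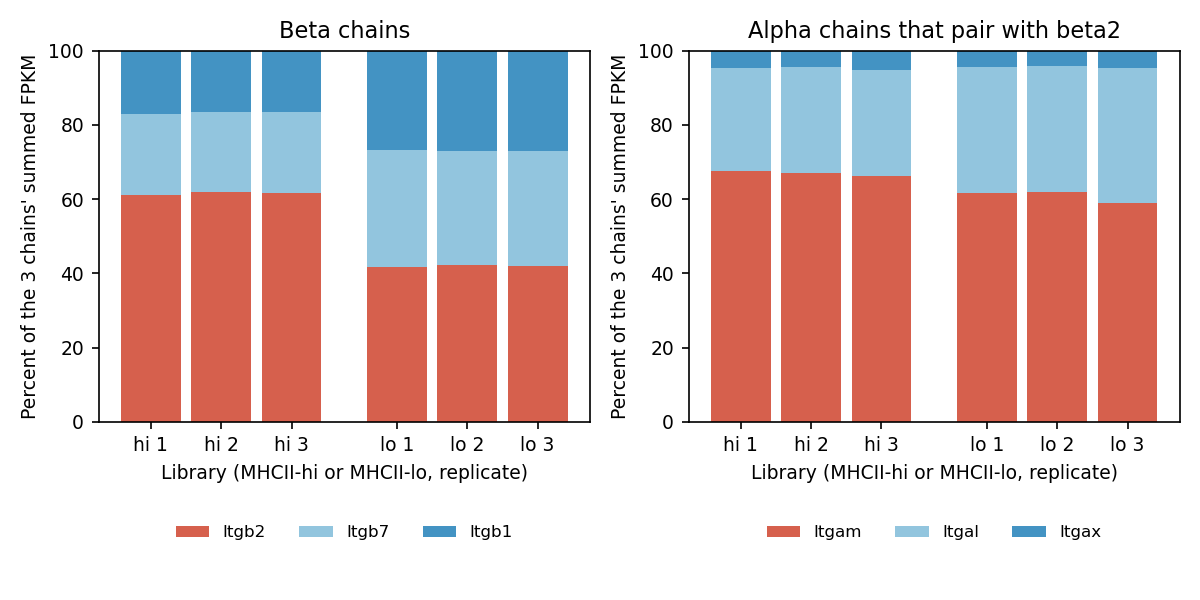
Share of each chain in the summed FPKM of the 3 beta chains Itgb2, Itgb7 and Itgb1 (left) and of the 3 alpha chains Itgam, Itgal and Itgax (right), with 1 bar per library. Itgb2 makes up 61.0% to 61.8% of the beta chains in the MHCII-hi libraries and 41.7% to 42.2% in the MHCII-lo libraries.

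Itga2b (ENSMUSG00000034664.13; chr11:102453297-102470122, minus strand) encodes alphaIIb of the platelet fibrinogen receptor. It had 11.7, 12.4 and 12.3 FPKM in MHCII-hi and 7.38, 7.65 and 7.72 FPKM in MHCII-lo. No library of either group came near the other group, and the log2 change was 0.61 ± 0.04 (SE; limma adjusted p = 1.05e-05). Its partner Itgb3 averaged 6.98 ± 0.610 FPKM in MHCII-hi and 6.26 ± 0.190 FPKM in MHCII-lo, a log2 change of 0.13 with a 95% interval of -0.01 to 0.28 that did not pass (limma adjusted p = 0.0908). It passed after median-of-ratios scaling (log2 change 0.22, limma adjusted p = 0.0181), and its log2 change was -0.01 after correction for GC content and transcript length. The ratio of Itga2b to Itgb3 was 1.75 ± 0.144 in MHCII-hi and 1.21 ± 0.0123 in MHCII-lo, without overlap (SD, n = 3 each; exact permutation p = 0.10).

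The order of the levels, per length of transcript, was Itgb2, Itgam, Itgb7, Itgal, Itgb1, Itgb2l, Itga4, Itga2b, Itgax and Itga6 in MHCII-hi. There the ranges of Itgb2l and Itga4 overlapped and those of all other neighbours in the order did not. In MHCII-lo the order was Itgb2, Itgam, Itgb7, Itgb1, Itgal, Itga4, Itgb2l, Itga2b, Itgax and Itga6, and Itgam and Itgb7 overlapped. In MHCII-hi, Itgb7 was well below Itgam, at 67.5 ± 1.49 against 150.5 ± 4.44 FPKM (SD, n = 3). In MHCII-lo the 2 genes were about level as deposited, Itgb7 at 86.04 ± 0.534 and Itgam at 87.8 ± 6.68 FPKM. That overlap rested on MHCII-lo replicate 3, with Itgam at 80.2 FPKM and Gm49368 at 11.5 FPKM. With Gm49368 added, Itgam stood at 91.7 to 93.9 FPKM in MHCII-lo, above Itgb7 at 85.4 to 86.35 FPKM. The 10 genes together summed to between 617 and 638 FPKM in MHCII-hi and between 474 and 486 FPKM in MHCII-lo.

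Among 1472 tested genes of similar level, those most like Itgb2l over the 6 libraries were Rgs1, which dampens G protein signalling, Padi4, a neutrophil enzyme that converts arginine to citrulline, and Il1f9, a cytokine of the interleukin-1 family. Likeness was the root mean square difference of log2(FPKM + 1), taken from each gene's mean over the 6 libraries, which was 0.0253, 0.0432 and 0.0493 in that order. Rgs1 averaged 48.1 ± 0.465 FPKM in MHCII-hi and 20.9 ± 0.146 FPKM in MHCII-lo. Those most like Itgb1, among 586 genes, were Mcm3 and Mcm7, subunits of the DNA replication helicase, and Fkbp4, a partner of heat shock protein 90, at 0.0123, 0.0137 and 0.0199. Mcm3 averaged 58.1 ± 1.15 FPKM in MHCII-hi and 83.1 ± 0.461 FPKM in MHCII-lo. With 2 groups of near-identical libraries, such likeness is mostly a likeness of the group difference.

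Most other integrin subunits had too low a mean to be tested. Of 17 listed, 11 had a mean under 1 FPKM, 1 rose, 2 fell and 3 did not pass, with a median log2 change of -0.04. Over all tested genes 27.2% were called higher and 40.5% lower, also the background for the lists of ligands, activation and adhesion complex genes. The collagen receptor chain Itga1 fell to 2.32 ± 0.156 FPKM in MHCII-hi, against 4.27 ± 0.215 FPKM in MHCII-lo (log2 change -0.67, limma adjusted p = 7.04e-05). The fibronectin receptor chain Itga5 fell to 6.11 ± 0.345 FPKM in MHCII-hi, against 8.76 ± 0.278 FPKM in MHCII-lo (limma adjusted p = 0.000160). Both pair with beta1. Itga2, a collagen receptor chain that also pairs with beta1, rose to 2.01 ± 0.121 FPKM in MHCII-hi, against 1.27 ± 0.0907 FPKM in MHCII-lo (limma adjusted p = 0.00161). The 3 that did not pass were Itgb3, Itgav and Itgb5.

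Ligands moved in both directions. Of 28 listed genes, 4 were not analysed here, 13 had a mean under 1 FPKM, 5 rose, 4 fell and 2 did not pass. Thbs1, the adhesive glycoprotein thrombospondin-1, rose to 119 ± 1.28 FPKM in MHCII-hi, against 54.2 ± 0.403 FPKM in MHCII-lo (limma adjusted p = 4.00e-08). Cdh1, E-cadherin and a ligand of alphaEbeta7, rose to 7.95 ± 0.607 FPKM in MHCII-hi, against 3.55 ± 0.163 FPKM in MHCII-lo (limma adjusted p = 1.39e-05). Fn1, fibronectin, fell to 77.6 ± 1.52 FPKM in MHCII-hi, against 129 ± 0.528 FPKM in MHCII-lo (limma adjusted p = 3.28e-07), and the erythroid adhesion molecule Icam4 fell to 1.27 ± 0.244 FPKM in MHCII-hi, against 2.86 ± 0.223 FPKM in MHCII-lo (limma adjusted p = 0.000401). Vcam1, the ligand of VLA-4, averaged 7.53 ± 0.327 FPKM in MHCII-hi and 7.11 ± 0.242 FPKM in MHCII-lo, a log2 change of 0.07 with a 95% interval of -0.03 to 0.18 that did not pass (limma adjusted p = 0.182). Icam2, a ligand of LFA-1, was the other that did not pass, with a log2 change of -0.01 and a 95% interval of -0.25 to 0.23.

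Among 20 tested genes that switch integrins between closed and open states, 9 rose, 5 fell and 6 did not pass, with a median log2 change of 0.10. Fyb, the adaptor ADAP that links T cell and platelet receptors to RAP1, rose to 32.7 ± 0.914 FPKM in MHCII-hi, against 18.3 ± 0.669 FPKM in MHCII-lo (limma adjusted p = 2.80e-06). Sipa1, which switches RAP1 off, rose to 44.8 ± 2.01 FPKM in MHCII-hi, against 31.5 ± 1.40 FPKM in MHCII-lo, and Sharpin, an inhibitor of integrin opening, rose to 11.6 ± 0.162 FPKM in MHCII-hi, against 8.49 ± 0.479 FPKM in MHCII-lo. Dok1, which competes with talin for beta tails, fell to 8.25 ± 0.244 FPKM in MHCII-hi, against 11.5 ± 0.398 FPKM in MHCII-lo. The limma adjusted p was 7.43e-05 for Sipa1, 0.000204 for Sharpin and 7.41e-05 for Dok1. The RAP1 genes were named after their values were seen. Rap1a fell to 57.6 ± 1.12 FPKM in MHCII-hi, against 67.3 ± 0.621 FPKM in MHCII-lo (limma adjusted p = 0.000116). Rap1b had a log2 change of -0.06 and did not pass (limma adjusted p = 0.0744). Talin and kindlin-3 themselves, named here after their values were seen, hardly moved. Tln1 had a log2 change of 0.05 (95% interval 0.01 to 0.09; limma adjusted p = 0.0276). Fermt3 had one of -0.05 (95% interval -0.11 to 0.02; limma adjusted p = 0.177).

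Of 24 tested genes of the adhesion complex and its signalling, 14 rose, 6 fell and 4 did not pass, with a median log2 change of 0.17. The 4 largest changes were in Actn1, Zyx, Syk and Pxn. Actn1, the crosslinker alpha-actinin-1, rose to 28.1 ± 1.54 FPKM in MHCII-hi, against 14.1 ± 0.326 FPKM in MHCII-lo (limma adjusted p = 3.21e-06). Zyx, zyxin of focal adhesions, rose to 85.1 ± 1.44 FPKM in MHCII-hi, against 48.9 ± 1.14 FPKM in MHCII-lo (limma adjusted p = 6.45e-07). The scaffold Pxn, paxillin, rose to 35.5 ± 0.922 FPKM in MHCII-hi, against 22.7 ± 0.492 FPKM in MHCII-lo (limma adjusted p = 3.97e-06). Syk, the kinase that signals downstream of beta2 integrins and of B cell receptors, rose to 48.7 ± 1.39 FPKM in MHCII-hi, against 30.3 ± 0.303 FPKM in MHCII-lo (limma adjusted p = 1.87e-06).

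**Figure D4:**
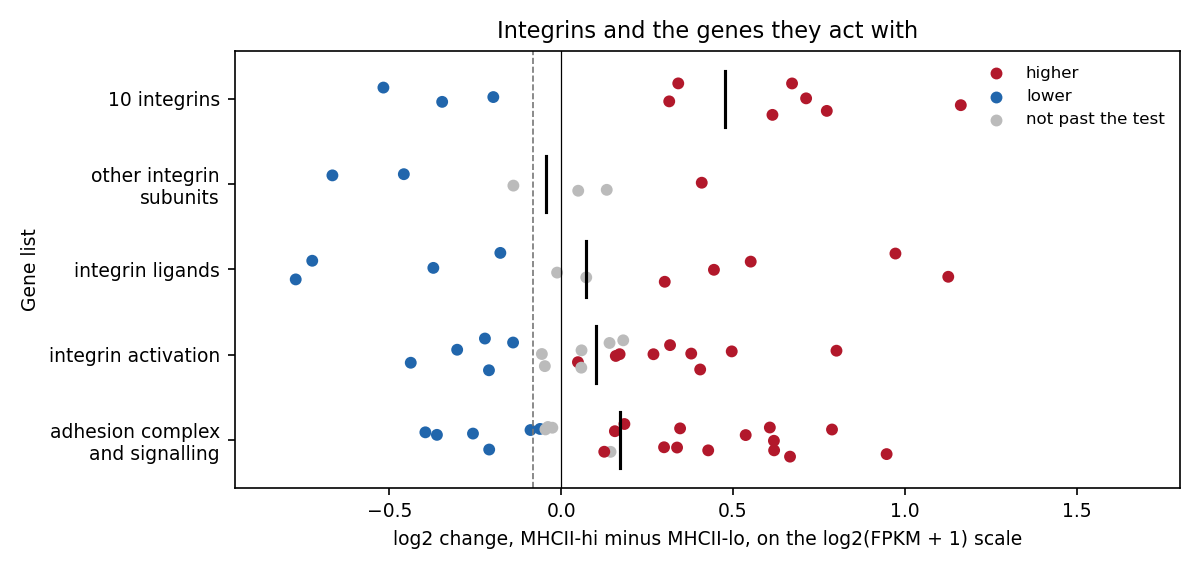
Log2 change of each tested gene, MHCII-hi minus MHCII-lo, for the 10 integrins and 4 lists of genes they act with, coloured by call, with the median of each list as a black bar. The dashed line is the median of all tested genes at -0.08. The medians run from -0.04 for other integrin subunits to 0.48 for the 10 integrins.

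Markers of cell types that carry these integrins moved in the same comparison. The background for every marker count is again 27.2% of all tested genes called higher and 40.5% called lower. Among neutrophil markers, 10 of 11 rose and 1 did not pass, with a median log2 change of 1.01, and Ngp, a granule protein of maturing neutrophils, averaged 5721 ± 25.6 FPKM in MHCII-hi and 2118 ± 24.6 FPKM in MHCII-lo. S100a9, a calcium-binding protein of neutrophils, averaged 7631 ± 48.7 FPKM in MHCII-hi and 5900 ± 12.4 FPKM in MHCII-lo. All 5 early granule markers fell, led in level by Mpo and Elane, and their sum lay between 2549 and 2580 FPKM in MHCII-hi and between 3671 and 3748 FPKM in MHCII-lo. Of 10 monocyte and macrophage markers 7 fell, 2 rose and 1 did not pass, and of 7 tested dendritic cell markers 6 rose and 1 fell. The monocyte antigen gene Ly6c2 averaged 341 ± 2.94 FPKM in MHCII-hi and 458.6 ± 13.4 FPKM in MHCII-lo, and Ms4a6c averaged 105 ± 8.79 FPKM in MHCII-hi and 175 ± 11.8 FPKM in MHCII-lo. The C-type lectin Cd209a rose to 31.4 ± 1.53 FPKM in MHCII-hi, against 10.9 ± 0.713 FPKM in MHCII-lo, and Bst2 fell to 47.4 ± 1.33 FPKM in MHCII-hi, against 53.2 ± 1.04 FPKM in MHCII-lo. These lists moved in different directions, and their part in the integrin values was not tested.

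All 10 B cell markers rose, and their sum lay between 216 and 222 FPKM in MHCII-hi and between 27.2 and 30.6 FPKM in MHCII-lo. Cd79a, a signalling chain of the B cell receptor, averaged 66.8 ± 3.33 FPKM in MHCII-hi and 5.69 ± 0.220 FPKM in MHCII-lo, and its partner Cd79b averaged 50.3 ± 1.52 FPKM in MHCII-hi and 12.5 ± 0.496 FPKM in MHCII-lo. All 7 plasma cell markers rose too, and Jchain, which joins antibody units, averaged 341 ± 3.52 FPKM in MHCII-hi and 17.6 ± 1.91 FPKM in MHCII-lo, with Xbp1 at 68.3 ± 1.53 FPKM in MHCII-hi and 53.98 ± 0.395 FPKM in MHCII-lo. T and NK cells are also known to carry Itgal and Itgb7. Their markers rose in 7 cases, fell in 3 and did not pass in 1. The sums were 216 to 228 FPKM in MHCII-hi and 209 to 213 FPKM in MHCII-lo. The most abundant of them, the cytotoxic granule genes Nkg7 and Gzma, both fell. Mast cell, basophil and eosinophil markers had sums of 2410 to 2411 FPKM in MHCII-hi and 2267 to 2288 FPKM in MHCII-lo, with 4 higher, 1 lower and 2 not past the test; the granule protein Prg2 fell and the basophil protease Prss34 rose. As a share of the library's FPKM the order of the groups turned, at 0.723% in each MHCII-hi library and 0.739% to 0.748% in MHCII-lo. The mean share of T and NK cell markers was likewise 0.0668% in MHCII-hi and 0.0691% in MHCII-lo. All 7 erythroid markers fell, the globins Hba-a1 and Hbb-bt among them.

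Beside Itga2b, 4 of 7 tested megakaryocyte and platelet markers rose and 3 did not pass. Their sum lay between 140.3 and 145 FPKM in MHCII-hi and between 70.5 and 72.8 FPKM in MHCII-lo, most of it Thbs1, which other cells also make. Without Thbs1 the sum lay between 21.3 and 23.95 FPKM in MHCII-hi and between 16.6 and 18.5 FPKM in MHCII-lo. The platelet chemokine Pf4 averaged 9.56 ± 1.15 FPKM in MHCII-hi and 8.31 ± 1.22 FPKM in MHCII-lo and did not pass (limma adjusted p = 0.189). No marker of any of these lists was at 0 in all 6 libraries. In bulk RNA, fewer cells of a type and less RNA per cell cannot be told apart, and the part of any cell type in the integrin values was not tested.

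**Figure D5:**
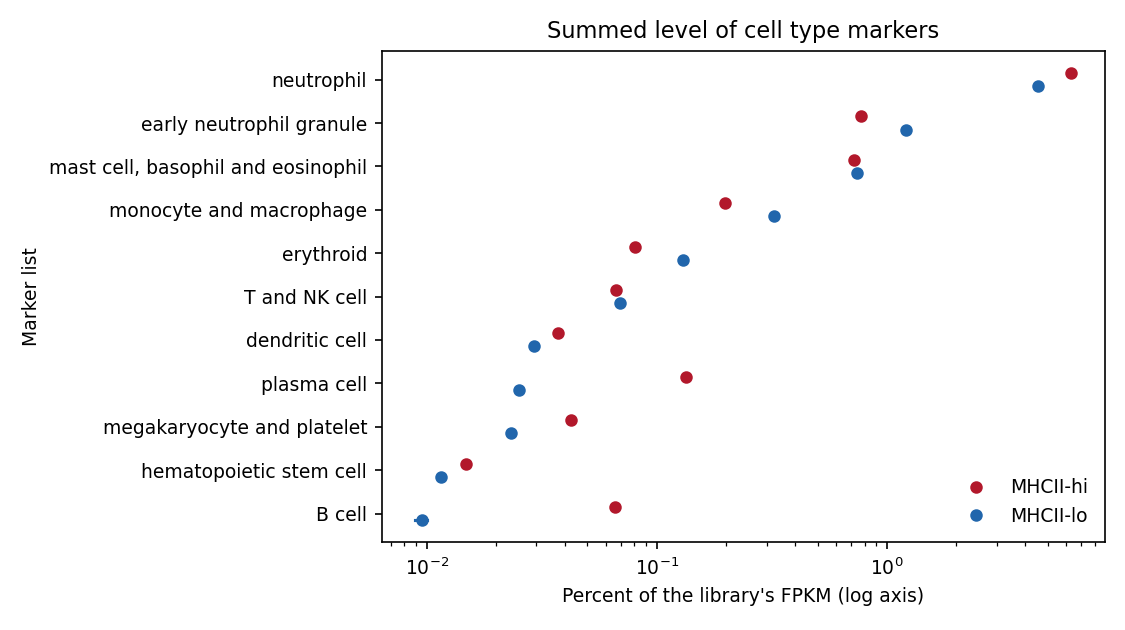
Summed level of each cell type marker list as a percent of the library's FPKM, on a log axis, with the mean as a point and the range over 3 libraries as a line that is mostly narrower than the point. MHCII-hi (red) is drawn above MHCII-lo (blue) within each row, whichever share is larger. Neutrophil markers hold the largest share in both groups, and the B cell and plasma cell lists differ most between the groups.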

How the data were processed

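RNA of sorted bone marrow cells was sequenced as strand-specific mRNA libraries, according to the labels' protocols. The submitters' processing notes name fastp, HISAT2, StringTie and the builds GRCm38 and mm10, and the sources used here do not say how reads shared between genes were counted. The deposited values, 1 per gene and library with 2 decimals, were taken as FPKM. The file headers do not name the unit. Low values fell on no whole-read steps, so the depth behind each value is unknown and counting error could not be given. Where a symbol occurred more than once (67 symbols), the row with the highest mean kept it.

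Genes averaging 1 FPKM or more were transformed to log2(FPKM + 1), which understates changes of low genes, and compared in limma 3.58.1 under R 4.3.3 (mean-variance trend, two-sided, Benjamini-Hochberg over 12295 genes, threshold 0.05). Ratios were compared by exact permutation in scipy 1.17.1. A ± after an FPKM or a share is the SD of 3 libraries. Gene models came from GENCODE M21 (GRCm38). Named genes were the 10 members, from each list of related genes up to 4 with the largest changes past the threshold, of each marker list those with the highest means, and the 3 genes most like the members that changed most. Genes that complete a count, Tln1, Fermt3, Rap1a, Rap1b, Vcam1, Icam2, Hoxb5, Ly6a and Gm49368 were added after values were seen. The members and lists were chosen with earlier results of these data known.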

Additional observations from a re-analysis of the deposited data

How the results depend on the processing

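The 10 integrins were refitted under 12 other settings and without each of the 6 libraries. They covered 2 smaller pseudocounts (0.1 and 0.01 FPKM), a minimum of 5 FPKM or none, scaling by quantiles, by median of ratios or to equal totals, leaving out immunoglobulin segments, correcting for GC content and transcript length, no mean-variance trend, array weights and a replicate block. No member changed direction in any of them. The count of members called higher was 7 in all of them and the count called lower was 2 or 3, Itga6 being the one lost. Itga6 lay below the minimum of 5 FPKM and was not tested there. Itgal kept a log2 change of 0.21 with that GC and length correction, against 0.34. Over all genes, the count called higher was 3348 and became 2210 with the minimum of 5 FPKM, where 7491 genes were tested. Over the other 11 settings it lay between 2534 and 4095. The count called lower was 4982 and lay between 3701 and 6244 over all 12 settings. Without each library the counts lay between 3071 and 3168 higher and between 4501 and 4807 lower. Of other integrin subunits 1 was called higher, against 5 with no filter, 0 at the minimum of 5 FPKM and 2 after median-of-ratios scaling, and 2 were called lower, against 1 at the minimum of 5 FPKM and 3 without MHCII-lo replicate 3. Of genes of integrin activation 5 were called lower, and 8 after scaling to equal totals.

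Deviations from group means over tested genes correlated at 0.0626, 0.00190 and 0.0804 between same-numbered libraries. Between libraries of different number the values lay between -0.0949 and 0.0251. Such small values among 3 libraries per group cannot decide whether the replicate numbers pair the libraries. With the replicate block 7 members were called higher and 3 lower, and 3222 genes were called higher and 4809 lower. Summing Itgam with Gm49368, chosen after seeing the data, gave a log2 change of 0.73, against 0.77.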
